A study of Haberlea rhodopensis with 10 samples.

Results

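The air-dry leaf of the resurrection plant Haberlea rhodopensis was compared with the watered leaf by RNA-seq, in 4 of the 10 libraries of the series. The fully dried stage (DT) had libraries DT-1 and DT-2, and the untreated, watered control (F) had libraries F-1 and F-2. The unit of measurement is the unigene, a transcript assembled without a genome, and the members are the 85267 of 142473 unigenes with an FPKM (fragments mapped to a transcript, scaled for its length and for the mapped fragments of the library) of at least 1 in 2 or more of the 10 libraries. Plants of both stages were propagated in vitro, moved to pots and kept for about a year in a growth chamber. Water was then withheld from the DT plants until the leaves were dry, and the F plants stayed watered. Fully grown leaves from the middle of the rosette were sampled, with a relative water content given as below 5% in one label and 6% in another for DT, and as about 100% or 90% for F. At least 4 plants were used per stage, but the sources do not say which plants went into which library. Each p-value thus measures only the spread between libraries of a stage, estimated over all 10 libraries of the series. In RNA of whole leaves, fewer cells of a type and less RNA per cell cannot be told apart, and all values are shares of a library rather than amounts per leaf.

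Resurrection plants let their leaves dry to equilibrium with the air, stay alive in that state and take up metabolism again when watered. Cells of such leaves are known to collect sugars of the sucrose and raffinose families, hydrophilic LEA (late embryogenesis abundant) proteins and chaperones while water leaves, and to damp photosynthesis, whose pigments turn harmful in the light once carbon fixation stops. Haberlea rhodopensis belongs to the species that keep most of their chlorophyll when dry, and the mRNA found in the dry leaf is the stock with which the leaf meets the next water.

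No sequence of an assembled transcript was used here, and the sequences at hand are the study's qPCR primers, which exist for 20 unigenes. Of these 20 unigenes 8 were called higher in DT than in F, 2 lower and 10 neither. The study chose them among the transcripts of these libraries, so their directions are no independent evidence. Primer pairs of 6 unigenes described below, 5 that rose or fell by a large factor and 1 that fell by a small one, are written 5′ to 3′ in lower case, with no base marked. They match an early light-induced protein (ELIP1, Unigene32083), a desiccation protectant of the LEA group (DRP, CL15119.Contig1), a further LEA protein (LEA, CL12215.Contig1), a galactinol synthase (GolS, Unigene42048), protochlorophyllide reductase (POR, CL15566.Contig1) and a photosystem I subunit (psaD1, Unigene10006).

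ELIP1 forward: tggttgaggatggtggtg
ELIP1 reverse: tgtccgtagcctttgtgc
DRP forward: ccaacatctgcgttcacaat
DRP reverse: catcgtatcgtcgtttcctt
LEA forward: aaggtgggaggaggaaga
LEA reverse: gtgacggctgtagtgctg
GolS forward: ctggaagaggtgaaggtggtc
GolS reverse: cggtggcaatgaaatgaac
POR forward: aatcgtcggctccatcac
POR reverse: cgaagtctcctccatctatca
psaD1 forward: ataaaggctatggcagagga
psaD1 reverse: ggcgaagatgggagaagg

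Fragments on unigenes numbered 9107949 in DT-1, 9683216 in DT-2, 8707220 in F-1 and 4522835 in F-2, and F-2 was the shallowest of the 10 libraries, which ran up to 12734565. Levels are given as scaled FPKM, the deposited FPKM divided by edgeR's TMM factor of the library. Differences are log2 fold changes of DT over F from the quasi-likelihood test of edgeR, fitted to the 10 libraries at once. The test gives no standard error (SE) itself. Each SE was derived as the size of the log2 fold change divided by the square root of the test statistic. An adjusted p is a Benjamini-Hochberg value over all 85267 unigenes in that test. A unigene was called at an adjusted p below 0.05, and the term DEG is kept for a fold of at least 2 with an adjusted p of at most 0.001. Shares and summed levels of a gene list cover all its members, tested or not, while calls and medians cover the tested ones. As a check of the tissue, 55 mesophyll markers, 29 of them tested, were summed (RuBisCO small chain and activase, chlorophyll-binding proteins, carbonic anhydrase, phosphoribulokinase). They held 0.179% and 0.138% of the scaled FPKM of the DT libraries, against 2.66% and 2.66% of the F libraries. Summed levels of the 6 root markers were 4.01 and 4.52 scaled FPKM in DT, against 70 and 32.8 in F. Those of the 139 guard cell markers, 87 of them tested, were 279 and 329 in DT, against 233 and 191 in F. The 2 guard cell markers highest on average over these libraries were hits to the kinase HT1. Both were called higher in DT, while the anion channel SLAC1 was called lower. Those of the 82 epidermis markers, 69 of them tested, were 74.3 and 68.6 in DT, against 602 and 555 in F. Mesophyll markers (23 of 29 called lower, 1 higher), epidermis markers (29 of 69 lower, 1 higher) and 5 of 6 root markers (0 higher) were lower in DT, and guard cell markers went both ways (12 higher, 15 lower, or 6, 5, 4 and 4 higher and 8, 6, 9 and 9 lower without DT-1, DT-2, F-1 and F-2). Their part in the results that follow was not tested.

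The dry leaf differed from the watered leaf in 19202 of the 85267 tested unigenes. In DT 8591 unigenes were called higher (10.1% of those tested) and 10611 lower (12.4%), with a median log2 fold change of 2.65 among those higher and −3.84 among those lower. Of these, 893 higher (1.05%) and 1461 lower (1.71%) unigenes met the DEG rule. By the fitted values falls were deeper than rises, with 5045 of the called unigenes at least 16-fold lower and 2172 at least 16-fold higher. These fitted folds were not bounded, and their size is uncertain where a whole group had no fragment, which was more frequent among falls. No fragment was seen in either DT library for 2369 of the unigenes called lower, and none in either F library for 832 of those called higher. Both DT values lay above both F values in 25802 tested unigenes and below them in 30797, together 66.4% of those tested. Groups that did not overlap were thus common among unigenes that were not called. Over all tested unigenes the median log2 fold change was −0.22, against which the medians of gene groups are to be read. It was −0.11 with unigenes at 0 in a whole group held at the bound that 3 fragments over the group's libraries allow, the bounded median given beside that of a group where it differs. Higher unigenes made up 44.7% of the calls. That share was 32.9% with limma on log2(FPKM + 1) and 31.8% with limma on log2(FPKM + 0.1), which add a constant to every value. The counts depend on each of the 4 libraries. Without DT-1, DT-2, F-1 and F-2 in turn, 4489, 4660, 4450 and 3313 unigenes were called higher and 5014, 4899, 7186 and 5589 lower, and DEGs numbered 0 without DT-1 or DT-2, 28 higher and 231 lower without F-1, and 5 higher and 98 lower without F-2. DEGs also moved with the libraries that only share the estimate of spread, to 299 higher and 814 lower without D20-1, 294 and 797 without D20-2, 375 and 762 without R-1, 346 and 810 without R-2, 4082 and 5845 without D75-1 and 4433 and 5705 without D75-2, and calls lower numbered 16536 and 15923 without D75-1 and D75-2.

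Transcripts called higher in DT were a large part of what the dry leaf held. They took up 46.5% and 45.1% of the scaled FPKM of DT-1 and DT-2, against 7.35% and 6.5% of F-1 and F-2. Transcripts called lower took 2.68% and 2.62% in DT, against 28.4% and 35.3% in F. The remaining 66065 tested unigenes, which passed the test in neither direction, held 49.2% and 50.9% in DT, against 62.5% and 55.3% in F. The unigenes were called from these same libraries, so the direction of the difference in the shares of called unigenes was built in. In the D20 libraries, from severely dehydrated leaves, the unigenes called higher in DT held 47.8% and 45.4%. The most abundant unigenes that together made up 50% of all scaled FPKM numbered 479 and 369 in DT, against 447 and 1190 in F, so the groups overlapped. With every library thinned to the depth of F-2, which itself kept all its fragments, 21358 and 22183 tested unigenes had no fragment in DT, against 14406 and 9820 in F. The filter for tested unigenes used these libraries too. Without that filter 84304 and 83214 unigenes had a fragment in the thinned DT libraries, against 93712 and 101891 in F. Fewer kinds of transcript were thus detected in both dry libraries.

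**Figure D1:**
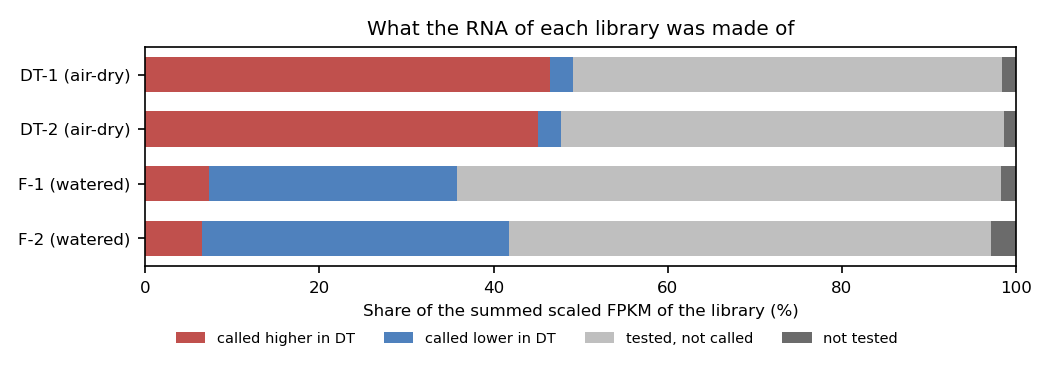
Stacked bars give the share of each library's summed scaled FPKM (x axis, %) in unigenes called higher in DT, called lower in DT, tested but not called, and not tested, with the DT libraries above the F libraries. Unigenes called higher fill 46.5% and 45.1% of the DT bars and 7.35% and 6.5% of the F bars, and unigenes tested but not called fill 49.2% to 62.5% of every bar. The calls were made from these same libraries.

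Among the most abundant named transcripts of the dry leaf, some were nearly absent from the watered leaf and others stood just as high in it. At the top was an early light-induced protein, a thylakoid relative of the light-harvesting proteins thought to bind free pigment under light stress (CL3769.Contig7), with 16750 and 18130 scaled FPKM in DT-1 and DT-2, against 2.66 and 2.45 in F-1 and F-2. Both dry libraries lay far above both watered ones (log2 12.72, SE 1.58, adjusted p = 0.000303). A type 2 metallothionein, a small cysteine-rich protein that binds metal ions (CL635.Contig3), had 15250 and 10780 in DT, against 839.9 and 466 in F, with every DT value above every F value (log2 4.32, SE 0.70, adjusted p = 0.00129). A phospholipid hydroperoxide glutathione peroxidase, which reduces oxidised membrane lipids (CL11908.Contig1), had 2963 and 5356 in DT, against 173 and 104 in F (log2 4.91, SE 0.65, adjusted p = 0.000427). The desiccation protectant Lea14 homolog (CL15119.Contig1, the DRP of the primers) had 3368 and 4667 in DT, against 101 and 18.5 in F (log2 6.07, SE 1.00, adjusted p = 0.00139). An aldose reductase, which reduces aldehydes and sugars (Unigene33220), had 2268 and 4193 in DT, against 25 and 1.18 in F (log2 7.94, SE 1.41, adjusted p = 0.00212). For these transcripts too the groups lay far apart, although the F libraries differed from each other by a factor of several for the Lea14 homolog and far more for the aldose reductase. A heat shock cognate 70 kDa protein, a chaperone of the cytosol (CL1701.Contig2), had 2623 and 2676 in DT, against 386 and 299 in F (log2 2.95, SE 0.61, adjusted p = 0.00511).

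Other top transcripts belong to the drought inventory by name but were abundant in watered leaves as well. A protein named late embryogenesis abundant protein 76 (CL2346.Contig2) had 9536 and 12140 in DT, against 9670 and 3560 in F (log2 0.71, SE 1.23, adjusted p = 0.699). A glycine-rich wall protein (Unigene13939) had 9293 and 12240 in DT, against 11390 and 2295 in F (adjusted p = 0.596). The dehydrin-type desiccation protein PCC6-19 (Unigene36452) had 4242 and 8988 in DT, against 11760 and 2994 in F (adjusted p = 0.909). The LEA protein Dc3 (CL17957.Contig2) had 2974 and 5353 in DT, against 5389 and 2036 in F (adjusted p = 0.862). In each of these 4 transcripts F-1 lay above F-2 by a factor of more than 2 and the DT values lay between or near them, so the groups overlapped and no difference was shown. Miraculin (Unigene47000) and a seed protein (Unigene46998), both of the Kunitz family of protease inhibitors, were abundant in 3 of the 4 libraries and lowest in DT-1. They are described with the differences between the DT libraries.

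**Figure D2:**
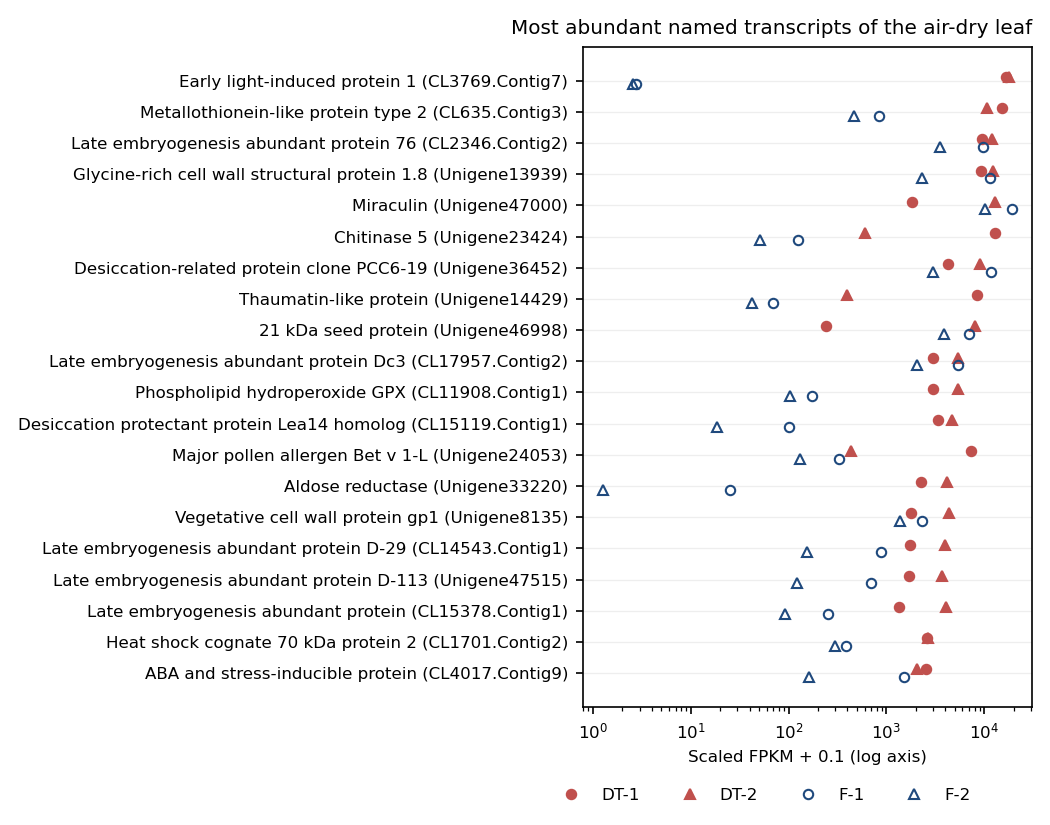
Points give the scaled FPKM (x axis, log scale, 0.1 added) of the 20 most abundant named transcripts of the dry leaf, 1 per assembly cluster and name, in DT-1 and DT-2 (filled) and F-1 and F-2 (open). The early light-induced protein at the top has 16750 and 18130 in DT and 2.66 and 2.45 in F, while LEA 76 (CL2346.Contig2) has 9536 and 12140 in DT and 9670 and 3560 in F.

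Early light-induced proteins rose as a group. Of 23 tested members 21 were called higher and 1 lower (median log2 8.72, bounded 8.47). The list held 6.09% and 7.8% of the scaled FPKM of the DT libraries, against 0.0315% and 0.0341% of the F libraries. The member with qPCR primers (Unigene32083) had 2141 and 3246 in DT, against 1.56 and 1.08 in F (log2 10.96, SE 0.85, adjusted p = 7.07e-05). A contig of the leading cluster (CL3769.Contig2) had 266 and 374 in DT, against 0 and 0 in F, at least 1160-fold higher (adjusted p = 0.000385). In both the dry libraries were close to each other and far above the watered ones. A further abundant contig of that cluster (CL3769.Contig5) had 11070 and 16380 in DT, against 37.1 and 47.8 in F (log2 8.34, SE 1.71, adjusted p = 0.00482), a call that was lost on leaving out an F library (adjusted p = 0.0521 without F-1 and 0.0563 without F-2). Another contig of the cluster, which carries no description and was picked once its values were known (CL3769.Contig8), had 2509 and 3199 in DT, against 0.689 and 1.43 in F (adjusted p = 0.000274). Contigs of a cluster may share reads, and the split among the CL3769 contigs is less certain than their sum. The member that fell (Unigene32087) ran the other way, with 2.35 and 0.656 in DT, against 117 and 81.9 in F (log2 −6.04, SE 0.70, adjusted p = 0.000215).

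LEA proteins and dehydrins, which stay soluble in drying cells and are thought to shield membranes and proteins, rose in many members, though not in the abundant LEA 76, PCC6-19 and Dc3 described above. Of 118 tested members 56 were called higher and 3 lower (median log2 2.52, bounded 2.44). The count higher was 46, 40, 64 and 31 without DT-1, DT-2, F-1 and F-2. The list held 7.31% and 11.7% of the scaled FPKM of the DT libraries, against 5.83% and 2.52% of the F libraries, so that F-1 stood apart from F-2 and closer to DT-1. The member with qPCR primers (CL12215.Contig1) had 507 and 891 in DT, against 4.09 and 1.84 in F (log2 7.86, SE 1.01, adjusted p = 0.000354). Desiccation-related protein PCC13-62, named after its homolog in the resurrection plant Craterostigma plantagineum (CL2143.Contig3), had 1158 and 1578 in DT, against 8.52 and 0.444 in F (log2 8.23, SE 1.59, adjusted p = 0.00344). A seed maturation protein (CL17522.Contig1) had 2020 and 2367 in DT, against 93.3 and 34.6 in F (log2 5.10, SE 0.72, adjusted p = 0.000586). A relative (Unigene19158) had 445 and 501 in DT, against 0.325 and 0.899 in F (adjusted p = 0.000181). These transcripts had both DT libraries above both F libraries by a wide margin, and PCC13-62 and the seed maturation protein were picked once their values were known. Em-like protein GEA1, a LEA protein of dry seeds in Arabidopsis (CL7090.Contig1), had 33 and 61.6 in DT, against 0 and 0 in F, at least 59.6-fold higher (adjusted p = 0.000552). Desiccation-related protein PCC27-45 (Unigene34524) had 32 and 29.3 in DT, against 0 and 0 in F, at least 52.3-fold higher (adjusted p = 0.000285).

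Several abundant LEA members were called higher on a smaller margin. LEA D-29 (CL14543.Contig1) had 1755 and 3991 in DT, against 874 and 153 in F (log2 2.48, SE 0.83, adjusted p = 0.0485). LEA D-113 (Unigene47515) had 1705 and 3727 in DT, against 702 and 122 in F (log2 2.72, SE 0.82, adjusted p = 0.0322). Both calls were lost on leaving out any library but F-1, with adjusted p = 0.0725 without DT-1, 0.244 without DT-2 and 0.183 without F-2 for D-29 and adjusted p = 0.0548 without DT-1, 0.178 without DT-2 and 0.127 without F-2 for D-113. A further LEA protein (CL15378.Contig1) had 1355 and 4076 in DT, against 251 and 90.8 in F (log2 3.99, SE 1.03, adjusted p = 0.0161, or 0.107 without DT-2 and 0.125 without F-2). In all 3 DT-2 lay above DT-1 and F-1 above F-2. No F value reached a DT value, but the groups did not overlap in 66.4% of all tested unigenes either. The LEA member with qPCR primers named Dh2 (Unigene15371), a dehydrin-type protein PCC6-19, had 1984 and 3217 in DT, against 3269 and 589 in F and was not called (adjusted p = 0.691).

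Among chaperones a larger share of members was called higher in the small heat shock proteins, which hold unfolding proteins in solution until other chaperones refold them, than in the larger families. In this group 18 of the 35 tested members were called higher and 0 lower (median log2 3.43, bounded 3.10). The list held 0.539% and 0.174% of the scaled FPKM of the DT libraries, against 0.0261% and 0.0244% of the F libraries. A class I member (CL882.Contig3) had 955 and 322 in DT, against 4.06 and 2.97 in F (log2 7.49, SE 0.72, adjusted p = 0.000108). A contig of the same cluster (CL882.Contig2) had 782 and 234 in DT, against 8.2 and 4.49 in F (adjusted p = 0.000191). A class II member, picked once its values were known (Unigene14339), had 539 and 164 in DT, against 17 and 9.19 in F (log2 4.75, SE 0.67, adjusted p = 0.000595). In each DT-1 lay well above DT-2, and both lay above both F libraries. Among HSP70, HSP90 and ClpB chaperones 20 of 149 were called higher (13.4%) and 15 lower (10.1%, median log2 −0.23, bounded −0.16). Members called higher numbered 8, 15, 9 and 9 and those lower 6, 5, 10 and 8 without DT-1, DT-2, F-1 and F-2. By level these families stood above the small heat shock proteins, with 0.757% and 0.615% of the scaled FPKM of the DT libraries, and their summed level was 6616 and 5467 in DT, against 2265 and 2074 in F. ClpB1, which pulls proteins out of aggregates (Unigene18861), was a member that fell, with 0.169 and 0.0962 in DT, against 8.03 and 20.5 in F (log2 −6.71, SE 0.81, adjusted p = 0.000259). Seed storage and oil body proteins were mostly not called (5 of 34 higher, 3 lower, median log2 0.30, bounded 0.15), but a 2S storage protein (Unigene20394) had 56.9 and 146 in DT, against 0.138 and 0 in F (log2 10.06, SE 1.21, adjusted p = 0.000258). A 12S storage protein (CL17621.Contig2) had 82.5 and 97.8 in DT, against 13 and 8.05 in F (log2 3.10, SE 0.41, adjusted p = 0.000437).

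Among the largest rises were transcripts with no fragment, or a few, in watered leaves. They were picked by fold among DEGs with both DT libraries above both F libraries, so that this separation was built in. A glycine-rich wall protein (Unigene38649) had 239 and 209 in DT, against 0 and 0 in F, at least 1160-fold higher (adjusted p = 0.000905). A thaumatin-like protein, of a family of antifungal and osmotic stress proteins (CL17597.Contig3), had 35.9 and 54.6 in DT, against 0 and 0 in F, at least 548-fold higher (adjusted p = 0.000109). Glutathione S-transferase F11 (Unigene48210) had 27.6 and 84.9 in DT, against 0 and 0 in F, at least 328-fold higher (adjusted p = 0.000148). All 3 were detected in both dry libraries and in neither watered one. DREB2A, a transcription factor that turns on drought and heat genes (CL12512.Contig1), had 32.1 and 47 in DT, against 0 and 0 in F, at least 309-fold higher (adjusted p = 0.000189). CYSTM1 family protein A, a small peptide with a cysteine-rich membrane module (CL3154.Contig2), had 262 and 299.9 in DT, against 0 and 0.28 in F (log2 10.94, SE 0.78, adjusted p = 6.98e-05). TGA2, a transcription factor of salicylate responses in Arabidopsis (Unigene2049), had 298 and 382 in DT, against 0.607 and 0 in F (log2 9.94, SE 0.92, adjusted p = 9.57e-05). Single F libraries held trace amounts of both. CBL-interacting protein kinase 2, of a family that calcium sensors switch on (CL639.Contig6), had 77.5 and 41.6 in DT, against 0 and 0 in F, at least 67.2-fold higher (adjusted p = 0.000833). Phosphoenolpyruvate carboxylase 1, which refills the citrate cycle (CL1371.Contig2), had 13 and 14.4 in DT, against 0 and 0 in F, at least 54.2-fold higher (adjusted p = 0.000238).

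Enzymes of soluble sugars had more members called higher than lower, and the commonest of them were as abundant in watered leaves. Of galactinol, raffinose and stachyose synthases, which build the raffinose family of sugars from sucrose, 15 of 50 were called higher and 7 lower (median log2 0.83, bounded 0.60), with 3, 3, 5 and 3 lower without DT-1, DT-2, F-1 and F-2. The list held 0.556% and 0.47% of the scaled FPKM of the DT libraries, against 0.509% and 0.411% of the F libraries. The galactinol synthase with primers (Unigene42048) had 33.5 and 30.4 in DT, against 0.121 and 0.336 in F (log2 7.13, SE 0.84, adjusted p = 0.000241). A galactinol-sucrose galactosyltransferase, the enzyme that makes raffinose (CL15513.Contig1), had 38.3 and 51.9 in DT, against 0.806 and 1.29 in F (log2 5.43, SE 0.47, adjusted p = 7.91e-05). Both were low transcripts that lay far above F in each dry library. The most abundant synthases stood as high in F. Galactinol synthase 1 (CL2862.Contig3) had 725 and 445 in DT, against 1009 and 471 in F (adjusted p = 0.733). Another contig of that cluster (CL2862.Contig5) had 662 and 438 in DT, against 1144 and 532 in F (adjusted p = 0.408). Of sucrose synthesis and cleavage enzymes 17 of 68 were called higher and 6 lower (median log2 0.74), with 3, 3, 4 and 4 lower in the same order. Neutral invertase CINV2, which splits sucrose in the cytosol (CL5161.Contig1), had 52.7 and 65.9 in DT, against 3.69 and 1.99 in F (log2 4.37, SE 0.53, adjusted p = 0.000263). An acid invertase named as a soluble isoenzyme (CL3341.Contig3) had 0.0583 and 0.442 in DT, against 9.66 and 17 in F (log2 −5.68, SE 0.70, adjusted p = 0.000292). Sucrose synthase 2 (CL9818.Contig1) had 272 and 478 in DT, against 97.5 and 41.8 in F (log2 2.43, SE 0.60, adjusted p = 0.0132, or 0.0913 without DT-2 and 0.0878 without F-2). Trehalose phosphate enzymes had 11 of 67 higher and 6 lower (median log2 −0.15). There were 8, 7, 9 and 7 members higher and 4, 3, 5 and 3 lower without DT-1, DT-2, F-1 and F-2.

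Starch synthesis enzymes were called lower in many members without a fall in their summed level, and members of starch breakdown were split. The summed level of the synthesis list was 1610 and 1633 scaled FPKM in DT, against 1538 and 1610 in F. That of the breakdown list was higher in DT, with 1499 and 2150, against 725 and 693.6 in F. Of starch synthesis enzymes 24 of 71 were called lower and 1 higher (median log2 −1.10, bounded −0.99). Calls lower numbered 9, 12, 19 and 10 without DT-1, DT-2, F-1 and F-2. Among the members that fell a small subunit of glucose-1-phosphate adenylyltransferase, the gate of starch synthesis (Unigene8737), had 41.3 and 54.5 in DT, against 305 and 263 in F (log2 −2.57, SE 0.41, adjusted p = 0.00124). The list's higher call was a large subunit of the same enzyme (CL10477.Contig4), with 65.8 and 74.8 in DT, against 22.9 and 24.1 in F (log2 1.58, SE 0.36, adjusted p = 0.00804, or 0.0603 without F-1), so its subunits were called in opposite directions. The most abundant member of the list, granule-bound starch synthase 1 (CL8620.Contig1), had 1339 and 1291 in DT, against 853 and 929 in F and was not called (adjusted p = 0.521). Of starch breakdown enzymes 18 of 69 were called higher and 21 lower (median log2 −0.87). Without the libraries in that order 15, 13, 15 and 10 members were higher and 6, 6, 16 and 9 lower. Members that rose and members that fell lay far apart between the groups. Beta-amylase 1 of the chloroplast, which frees maltose from starch (CL1706.Contig3), had 498 and 766 in DT, against 41.6 and 29.2 in F (log2 4.16, SE 0.53, adjusted p = 0.000357). Inactive beta-amylase 9 (Unigene47216) had 118 and 166 in DT, against 1.88 and 2.08 in F (log2 6.16, SE 0.63, adjusted p = 0.000143). In both the DT values lay an order of magnitude above F. Isoamylase 2 (CL11953.Contig2) fell, with 0.171 and 0.324 in DT, against 2.85 and 3.23 in F (adjusted p = 0.000641). Of sugar transporters 24 of 107 were called higher and 8 lower (median log2 −0.17, bounded 0.00). Leaving out DT-1, DT-2, F-1 and F-2 in turn gave 17, 16, 15 and 11 members higher. Sucrose transporter SUC4, a carrier of the vacuole membrane in Arabidopsis (CL6521.Contig3), had 123 and 213 in DT, against 14.2 and 10.4 in F (log2 3.77, SE 0.50, adjusted p = 0.000414). SWEET17, a fructose carrier of that membrane in Arabidopsis (Unigene18933), had 0 and 0 in DT, against 6.9 and 11.7 in F, at least 57.2-fold lower (adjusted p = 0.000944).

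Antioxidant enzymes were called higher about as often as all unigenes and lower less often. Of catalases, superoxide dismutases and peroxide reductases 17 of 151 were called higher (11.3%) and 10 lower (6.62%), against 10.1% and 12.4% over all unigenes (median log2 0.42). The count higher was 10, 9, 9 and 7 without DT-1, DT-2, F-1 and F-2. Catalase isozyme 3 (CL7689.Contig3) had 525 and 143 in DT, against 1285 and 1330 in F and missed the threshold (adjusted p = 0.0504). A unigene named bifunctional monodehydroascorbate reductase and carbonic anhydrase nectarin-3 (Unigene23769) fell, with 1.64 and 0.875 in DT, against 143 and 76.4 in F (log2 −6.43, SE 0.59, adjusted p = 9.11e-05). Glutathione S-transferases had 3 of 53 higher and 3 lower (median log2 0.13). The member with primers, GST 23 (CL18432.Contig3), had 128 and 112 in DT, against 43.7 and 14.5 in F (log2 2.04, SE 0.57, adjusted p = 0.0228, or 0.0962 without DT-1, 0.0713 without DT-2 and 0.142 without F-2). Of aldehyde dehydrogenases and aldo-keto reductases, which clear reactive aldehydes, 9 of 96 were called higher and 19 lower (median log2 −0.38), with 12, 10, 13 and 15 lower without DT-1, DT-2, F-1 and F-2, yet the list held 0.463% and 0.704% of the scaled FPKM of the DT libraries, against 0.169% and 0.167% of the F libraries, with the aldose reductase as its largest member in DT. Besides the aldose reductase, the aldo-keto reductase AKR4C9 (CL5676.Contig2) had 606 and 559 in DT, against 8.34 and 7.5 in F (log2 6.20, SE 1.05, adjusted p = 0.00162). Homogentisate phytyltransferase 1, which makes the tocopherol skeleton (CL14506.Contig1), had 39.1 and 91.5 in DT, against 17.2 and 16.1 in F (log2 1.97, SE 0.51, adjusted p = 0.0153, or 0.155 without DT-2, 0.0833 without F-1 and 0.0968 without F-2).

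Abscisic acid (ABA) is the hormone of water deficit. Its receptors inhibit protein phosphatases 2C, which otherwise hold back the kinases and bZIP factors of the response. Of the phosphatases 66 of 305 were called higher and 28 lower (median log2 0.46). Members called higher numbered 39, 29, 34 and 26 without DT-1, DT-2, F-1 and F-2. The list covers the whole family, most of which does not act on ABA. Phosphatase 2C 8 (CL4847.Contig3) had 172 and 409.7 in DT, against 0.152 and 0 in F (log2 11.58, SE 1.33, adjusted p = 0.000212). F-1 held a trace of it and F-2 none. Phosphatase 2C 6 (Unigene23462) had 1.02 and 0.7 in DT, against 12 and 11.9 in F (log2 −3.78, SE 0.55, adjusted p = 0.000718). Receptors, SnRK2 kinases and ABA factors had 17 of 116 higher and 25 lower (median log2 −0.23, bounded −0.18). There were 11, 9, 10 and 5 members higher and 12, 15, 17 and 16 lower without DT-1, DT-2, F-1 and F-2. A receptor and a factor fell, and another factor rose. ABA receptor PYL4 (CL8145.Contig1) had 12.1 and 12.6 in DT, against 65.4 and 39.3 in F (log2 −2.09, SE 0.52, adjusted p = 0.013, or 0.0927 without DT-1, 0.0856 without DT-2 and 0.0697 without F-1). The bZIP factor named ABSCISIC ACID-INSENSITIVE 5-like protein 7 (Unigene32434) fell, with 4.94 and 1.93 in DT, against 163 and 84.1 in F (log2 −5.17, SE 0.59, adjusted p = 0.000201). The relative named 5-like protein 5 (CL3292.Contig4) rose at a low level, with 2.71 and 3.58 in DT, against 0.175 and 0.0806 in F (log2 4.49, SE 0.76, adjusted p = 0.0016).

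Of the transcription factor families described here, heat stress and NAC factors had the largest shares called higher. Heat stress factors, which switch on chaperone genes, had 33 of 83 higher and 7 lower (median log2 1.56, bounded 1.49). Calls higher numbered 21, 28, 27 and 21 without DT-1, DT-2, F-1 and F-2. HSF24 (CL14898.Contig3) had 12.6 and 11.8 in DT, against 0.151 and 0 in F (adjusted p = 0.000115). HSF B-2b (Unigene23918) had 73 and 69.7 in DT, against 5.85 and 5.39 in F (log2 3.66, SE 0.41, adjusted p = 0.000189). HSF B-4 (CL13044.Contig2) had 0 and 0 in DT, against 3.09 and 4.67 in F, at least 25.5-fold lower (adjusted p = 0.00235). NAC factors had 46 of 149 higher and 13 lower (median log2 0.82, bounded 0.72). Removing DT-1, DT-2, F-1 and F-2 in turn gave 30, 23, 24 and 17 members higher. NAC2, the NAC of the primers (Unigene12927), had 79.2 and 118 in DT, against 2.47 and 2.28 in F (log2 5.37, SE 0.65, adjusted p = 0.000258). NAC29 (CL951.Contig2) had 1.98 and 2.07 in DT, against 64.5 and 44.1 in F (log2 −4.74, SE 0.47, adjusted p = 0.000125). Both families thus had members high in DT and others high in F, each with the groups apart. WRKY factors were split (38 of 203 higher, 29 lower, median log2 −0.17, bounded −0.07), as were DREB and ERF factors (51 of 280 higher, 58 lower, median log2 −0.36, bounded −0.12). Without DT-1, DT-2, F-1 and F-2 the WRKY counts were 27, 25, 25 and 18 higher and 15, 12, 17 and 15 lower, and the DREB and ERF counts 32, 38, 36 and 23 higher and 33, 27, 39 and 39 lower. WRKY75 (Unigene14548) had 298 and 127 in DT, against 4.12 and 2.28 in F (log2 6.03, SE 0.80, adjusted p = 0.000428). WRKY53 (Unigene18064) had 0.87 and 1.17 in DT, against 29.1 and 24.6 in F (log2 −4.71, SE 0.64, adjusted p = 0.00047). MYB factors had 32 of 212 higher and 54 lower (median log2 −1.14, bounded −1.04). Fits without DT-1, DT-2, F-1 and F-2 called 25, 28, 33 and 37 members lower. MYB44, a brake on stress phosphatases in Arabidopsis (Unigene33352), had 80.2 and 121 in DT, against 6.23 and 3.25 in F (log2 4.40, SE 0.52, adjusted p = 0.000242). MYB46, an activator of secondary wall genes (CL14520.Contig2), had 0.846 and 1.07 in DT, against 17 and 20.4 in F (log2 −4.28, SE 0.51, adjusted p = 0.000245). Clock genes were lower more often than higher (51 of 219 lower, 24 higher, median log2 −0.77, bounded −0.72). Leaving out DT-1, DT-2, F-1 and F-2 in turn gave 30, 30, 36 and 31 members lower. EARLY FLOWERING 4, part of the evening complex (Unigene23486), had 38.6 and 35.2 in DT, against 0.328 and 0.151 in F (log2 7.13, SE 0.57, adjusted p = 7.07e-05). CONSTANS-LIKE 2 (CL14402.Contig2) had 0 and 0 in DT, against 16.3 and 22.8 in F, at least 264-fold lower (adjusted p = 7.07e-05). The time of day of sampling was not in the labels.

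Transcripts of photosynthesis were lower in the dry leaf in many of the tested genes, and the abundant ones stayed detectable. Of light-harvesting proteins 30 of 43 were called lower and 1 higher (median log2 −3.48, bounded −3.43). The count lower was 17, 19, 30 and 29 without DT-1, DT-2, F-1 and F-2. The list held 0.292% and 0.299% of the scaled FPKM of the DT libraries, against 2.31% and 3.79% of the F libraries. Photosystem and electron transport subunits had 51 of 97 lower and 5 higher (median log2 −1.82, bounded −1.80), and Calvin cycle enzymes 39 of 78 lower and 4 higher (median log2 −2.02, bounded −1.85). Without DT-1, DT-2, F-1 and F-2 the lower counts were 38, 35, 43 and 51 for photosystem and electron transport subunits and 26, 27, 34 and 30 for the Calvin cycle. The small chain of RuBisCO, the enzyme that fixes carbon dioxide (CL7824.Contig2), had 565 and 325 scaled FPKM in DT-1 and DT-2, against 9273 and 6364 in F-1 and F-2 (log2 −4.13, SE 0.64, adjusted p = 0.00102). RuBisCO activase (CL17828.Contig1) had 102 and 118 in DT, against 2487 and 1450 in F (log2 −4.16, SE 0.66, adjusted p = 0.00108). For both, every dry value lay an order of magnitude below the watered ones and far above 0. A chlorophyll a-b binding protein (CL3636.Contig2) had 4.79 and 9.45 in DT, against 733 and 1084 in F (log2 −6.98, SE 0.74, adjusted p = 0.000152). CP26, an antenna of photosystem II picked once its values were known (CL16836.Contig2), had 79.5 and 52.9 in DT, against 1331 and 1378 in F (log2 −4.36, SE 0.63, adjusted p = 0.000644). The photosystem I subunit II of the primers (psaD1, Unigene10006) fell by less, with 558 and 592 in DT, against 2195 and 1683 in F (log2 −1.75, SE 0.52, adjusted p = 0.0289), and its call was lost without DT-1, DT-2 or F-1 (adjusted p = 0.147 without DT-1, 0.131 without DT-2 and 0.0617 without F-1). The most abundant subunit, a small photosystem II polypeptide (Unigene1712), had 1696 and 1650 in DT, against 7448 and 3401 in F and missed the threshold (adjusted p = 0.0547).

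Chlorophyll synthesis had 18 of 72 enzymes lower and 5 higher (median log2 −1.35, bounded −1.03). Members called lower numbered 10, 11, 15 and 11 without DT-1, DT-2, F-1 and F-2. The light-dependent protochlorophyllide reductase of the primers (POR, CL15566.Contig1) had 1.4 and 1.79 in DT, against 316 and 342 in F (log2 −7.68, SE 0.65, adjusted p = 7.50e-05). The contig beside it (CL15566.Contig2) had 11.3 and 3.83 in DT, against 1019 and 508 in F (adjusted p = 0.000181). In both the dry values lay more than an order of magnitude below the watered ones. A further POR unigene (CL4541.Contig1) had 158 and 59.2 in DT, against 738 and 467 in F (log2 −2.47, SE 0.73, adjusted p = 0.0302, or 0.057 without DT-1, 0.201 without DT-2, 0.102 without F-1 and 0.0592 without F-2). Glutamyl-tRNA reductase 1, the first committed step of the pathway (Unigene37572), was a member that rose, with 28.1 and 43.2 in DT, against 4.26 and 4.21 in F (log2 3.07, SE 0.44, adjusted p = 0.000623). Chlorophyll breakdown had 5 of 30 members higher and 9 lower (median log2 −0.36). Without DT-1, DT-2, F-1 and F-2 these counts were 3, 3, 3 and 1 higher and 3, 3, 6 and 4 lower. Enzymes that remove the phytol tail and open the ring were among the members that rose. Pheophytinase (Unigene1798), which removes the phytol tail, had 238 and 351 in DT, against 34.9 and 41.8 in F (log2 2.94, SE 0.62, adjusted p = 0.00566, or 0.053 without F-1). Pheophorbide a oxygenase, which opens the ring (Unigene7859), had 222 and 253 in DT, against 62.2 and 44.3 in F (log2 2.15, SE 0.49, adjusted p = 0.00814, or 0.0661 without F-2). Ribosomal proteins of the chloroplast had 32 of 213 lower, near the 12.4% over all unigenes, and 13 higher (6.1%, median log2 −0.39). Removing DT-1, DT-2, F-1 and F-2 in turn gave 18, 17, 20 and 19 members lower.

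Wall transcripts of growing cells were among the deepest losses. Of expansins and xyloglucan enzymes, which loosen walls as cells expand, 38 of 74 were called lower and 3 higher (median log2 −5.01, bounded −2.91). Of pectin-modifying enzymes 72 of 144 were called lower and 10 higher (median log2 −3.73, bounded −2.27). Fits without DT-1, DT-2, F-1 and F-2 called 47, 51, 60 and 49 members lower. Expansin A8 (Unigene17772) had 0.0997 and 0.189 scaled FPKM in DT-1 and DT-2, against 477 and 533 in F-1 and F-2 (log2 −11.66, SE 0.95, adjusted p = 7.07e-05). An expansin A2 (Unigene64516) had 0 and 0 in DT, against 96.3 and 109 in F, at least 704-fold lower (adjusted p = 0.000216). Both were abundant in each watered library and at or near 0 in each dry one. A xyloglucan endotransglucosylase/hydrolase, which cuts and rejoins hemicellulose (Unigene48186), had 0.287 and 0.0907 in DT, against 35.2 and 27.8 in F (log2 −7.32, SE 0.58, adjusted p = 7.07e-05). A pectinesterase (CL14292.Contig6) had 0.669 and 1.73 in DT, against 141 and 251 in F (log2 −7.34, SE 0.88, adjusted p = 0.000252). Pectate lyase 5 (CL9920.Contig3) had 0 and 0.0711 in DT, against 311 and 433 in F (log2 −13.03, SE 1.25, adjusted p = 0.000107). Xyloglucan and pectin enzymes like these act on the primary wall, and their levels in DT were within a few FPKM of 0. Glucomannan 4-beta-mannosyltransferase 2, which makes mannan (CL4301.Contig2), had 0 and 0 in DT, against 13.7 and 54 in F, at least 458-fold lower (adjusted p = 0.000337). Protein E6, known from growing cotton fibres (CL10319.Contig5), had 0.18 and 0.0855 in DT, against 895 and 1586 in F (log2 −13.10, SE 1.08, adjusted p = 7.07e-05). These were transcripts detected in both F libraries that dropped to traces in DT. Both were picked for the size of their fall, with the DT libraries required to lie below the F libraries. Structural wall proteins went both ways, with 51 of 327 higher and 97 lower (median log2 −0.75, bounded −0.38). Without DT-1, DT-2, F-1 and F-2 their counts were 35, 28, 27 and 24 higher and 66, 60, 83 and 70 lower. Repetitive proline-rich protein 1 (Unigene43757) had 0 and 0 in DT, against 123 and 676 in F, at least 782-fold lower (adjusted p = 0.000537). An extensin (CL9391.Contig1) had 439.8 and 532 in DT, against 1.13 and 0.734 in F (adjusted p = 6.98e-05).

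Genes of surface lipids, the cytoskeleton and growth hormones were also lower in many members. Of cutin, wax and surface lipid enzymes 104 of 262 were called lower and 10 higher (median log2 −2.47, bounded −1.93). Members called lower numbered 64, 61, 75 and 70 without DT-1, DT-2, F-1 and F-2. The GDSL esterase/lipase APG (CL4964.Contig1) had 0 and 0 in DT, against 288 and 257 in F, at least 2150-fold lower (adjusted p = 0.000131). Glycerol-3-phosphate acyltransferase 8, which builds cutin (CL8538.Contig1), had 0 and 0 in DT, against 88.6 and 61.2 in F, at least 757-fold lower (adjusted p = 0.000308). The 3-ketoacyl-CoA synthase 6, which lengthens wax chains (CL14201.Contig1), had 0.135 and 0.192 in DT, against 181 and 133 in F (log2 −9.84, SE 0.81, adjusted p = 7.07e-05). The cutin, wax and lipase transcripts named here were at or near 0 in both dry libraries. Tubulins, actins and kinesins, the proteins of the cytoskeleton, had 80 of 265 lower and 6 higher (median log2 −2.18, bounded −1.56). There were 44, 47, 71 and 43 members lower without DT-1, DT-2, F-1 and F-2. An alpha-1 tubulin (CL3793.Contig10) had 9.38 and 3.85 in DT, against 368 and 358 in F (log2 −5.78, SE 0.65, adjusted p = 0.000189). The cytoskeleton was not lower throughout, since actin-7 (Unigene37023) had 246 and 225 in DT, against 175 and 129.9 in F and was not called (adjusted p = 0.24). Cell cycle, replication and histone genes had 77 of 361 lower and 19 higher (median log2 −0.91, bounded −0.83). Calls lower numbered 42, 43, 58 and 53 without DT-1, DT-2, F-1 and F-2. The mitotic kinase named cell division control protein 2 homolog A (CL1211.Contig3) had 0.976 and 0.588 in DT, against 59.2 and 44.3 in F (log2 −6.04, SE 0.52, adjusted p = 7.68e-05). Auxin response and gibberellin-regulated genes had 101 of 180 lower and 10 higher (median log2 −3.32, bounded −2.95). Removing DT-1, DT-2, F-1 and F-2 in turn gave 76, 67, 76 and 89 members lower. GAST1, a gibberellin-regulated peptide (CL9991.Contig2), had 0 and 0 in DT, against 96.3 and 123 in F, at least 457-fold lower (adjusted p = 0.000257). Gibberellin-regulated protein 9 (CL5985.Contig4) had 5.38 and 3.62 in DT, against 313 and 253 in F (log2 −5.97, SE 0.53, adjusted p = 8.01e-05). An auxin-induced protein X10A (CL10193.Contig4) went against its list, with 39.5 and 58.5 in DT, against 0.822 and 0.0758 in F (log2 6.66, SE 0.83, adjusted p = 0.000297).

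Water channels were lower in 20 of 50 members and higher in 3 (median log2 −2.02, bounded −1.29), and held 0.428% and 0.514% of the scaled FPKM of the DT libraries, against 0.992% and 1.13% of the F libraries. Aquaporin PIP2-8 of the plasma membrane (Unigene36137) had 0 and 0 in DT, against 50.9 and 96.5 in F, at least 166-fold lower (adjusted p = 0.00128). TIP2-1 of the vacuole (Unigene1878) had 3.49 and 17.2 in DT, against 212 and 203 in F (log2 −4.32, SE 0.68, adjusted p = 0.00105). The most abundant channels were not called. PIP1-2 (CL4872.Contig1) had 1588 and 1283 in DT, against 1385 and 979 in F (adjusted p = 0.802). TIP1-1 of the primers (CL14445.Contig3) had 1203 and 2169 in DT, against 3952 and 3479 in F (adjusted p = 0.208). PIP2-8 and TIP2-1 were picked once their values were known. For PIP1-2 the groups overlapped, and for TIP1-1 both dry values lay below both watered ones without passing the test.

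Secondary metabolism and ion transport had members called in both directions, to be read beside shares of 10.1% higher and 12.4% lower over all unigenes. Flavonoid and anthocyanin enzymes had 40 of 99 lower (40.4%) and 10 higher (10.1%, the share over all unigenes, median log2 −1.97, bounded −1.53). Fits without DT-1, DT-2, F-1 and F-2 called 24, 22, 27 and 32 members lower. Naringenin 3-dioxygenase (Unigene48082), which makes dihydroflavonols, had 0 and 0.142 in DT, against 186 and 308 in F (log2 −11.58, SE 1.03, adjusted p = 0.000107). Phenylpropanoid and lignin enzymes had 64 of 191 lower and 27 higher (median log2 −1.17, bounded −0.89). Leaving out DT-1, DT-2, F-1 and F-2 in turn gave 50, 42, 52 and 46 members lower and 19, 20, 17 and 15 higher. Lignin is made from phenylpropanoids, and members of this group moved both ways. Polyphenol oxidase II, which oxidises phenolics (CL6698.Contig5), had 0 and 0 in DT, against 75.8 and 60.9 in F, at least 835-fold lower (adjusted p = 7.07e-05). Caffeoylshikimate esterase, a step of lignin synthesis (CL14363.Contig3), had 142 and 186 in DT, against 11.1 and 5.38 in F (log2 4.31, SE 0.50, adjusted p = 0.00022). Class III peroxidases of the wall had 17 of 34 lower and 1 higher (median log2 −3.83, bounded −3.53). The count lower was 12, 11, 14 and 13 without DT-1, DT-2, F-1 and F-2. Peroxidase 42 (CL4670.Contig4) had 5.19 and 2.77 in DT, against 305 and 326 in F (log2 −6.31, SE 0.75, adjusted p = 0.000241). Peroxidase 12 of the primers (Unigene19468) had 275 and 716 in DT, against 139 and 211 in F and was not called (adjusted p = 0.183). Of potassium and anion transport genes 27 of 128 were called higher (21.1%) and 17 lower (13.3%, near the share over all unigenes, median log2 −0.04, bounded 0.00). Members called higher numbered 16, 13, 13 and 13 and those lower 13, 11, 14 and 11 without DT-1, DT-2, F-1 and F-2. Anion channel SLAH1 (CL5988.Contig1) had 27.1 and 15.5 in DT, against 0.222 and 0.205 in F (log2 6.58, SE 0.70, adjusted p = 0.000156). Its relative SLAC1, which closes stomata (Unigene7391), had 0.24 and 0.398 in DT, against 8.33 and 8.37 in F (log2 −4.68, SE 0.49, adjusted p = 0.000148). These relatives were thus high in opposite groups. ABC transporters had 55 of 245 lower and 27 higher (median log2 −0.97, bounded −0.72). There were 32, 26, 43 and 34 members lower without DT-1, DT-2, F-1 and F-2.

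Cytosolic ribosomal proteins were called in few members, while translation factors and several groups of degradation were more often higher than lower. Of 947 cytosolic ribosomal proteins 36 were called higher (3.8%) and 43 lower (4.54%), below the shares over all unigenes, with a median log2 0.06, bounded 0.04. Counts without DT-1, DT-2, F-1 and F-2 were 11, 19, 18 and 9 higher and 10, 2, 19 and 16 lower. The list held 3.15% and 2.23% of the scaled FPKM of the DT libraries, against 2.74% and 2.61% of the F libraries. Acidic ribosomal protein P2B (CL3756.Contig3) was an exception, with 59.2 and 39.2 in DT, against 0.356 and 0.328 in F (log2 7.11, SE 0.92, adjusted p = 0.000363). Ribosomal protein S15 (CL12359.Contig1), the most abundant of those named, had 764 and 481 in DT, against 348 and 219.5 in F and was not called (adjusted p = 0.101). Translation factors had 74 of 443 higher and 10 lower (median log2 0.50). Calls higher numbered 22, 31, 33 and 18 without DT-1, DT-2, F-1 and F-2. Initiation factor 2D (CL10184.Contig5) had 20.5 and 25.8 in DT, against 4.31 and 2.98 in F (log2 2.66, SE 0.39, adjusted p = 0.000688). An elongation factor 1-alpha (CL1730.Contig6) had 727 and 588 in DT, against 324 and 151 in F (log2 1.47, SE 0.49, adjusted p = 0.0486, or 0.179 without DT-1, 0.104 without DT-2 and 0.202 without F-2). DEAD-box RNA helicases, which unwind RNA, had 49 of 346 higher (14.2%) and 13 lower (3.76%, median log2 0.32). Removing DT-1, DT-2, F-1 and F-2 in turn gave 22, 30, 21 and 21 members higher. Splicing factors and RNA-binding proteins had 63 of 557 higher (11.3%, near the 10.1% over all unigenes) and 34 lower (6.1%, median log2 0.14, bounded 0.13). Fits without DT-1, DT-2, F-1 and F-2 called 20, 30, 28 and 13 members higher.

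Proteasome subunits, which degrade tagged proteins, had 38 of 241 higher and 6 lower (median log2 0.52, bounded 0.45). Leaving out DT-1, DT-2, F-1 and F-2 in turn gave 8, 15, 16 and 4 members higher. Regulatory subunit 4 homolog A (CL6708.Contig4) had 35.8 and 51.1 in DT, against 1.61 and 2.22 in F (log2 4.50, SE 0.52, adjusted p = 0.000226). Subunit alpha type-6 of the primers (PSMA6, CL9422.Contig2) had 87.7 and 84.2 in DT, against 58.9 and 51.3 in F and was not called (adjusted p = 0.232). U-box and RING ubiquitin ligases, which tag those proteins, had 242 of 1189 higher and 135 lower (median log2 0.44, bounded 0.43). The count higher was 154, 150, 159 and 123 without DT-1, DT-2, F-1 and F-2. RHA2B, a positive regulator of ABA signalling in Arabidopsis (Unigene13949), had 61.8 and 48.6 in DT, against 1.54 and 1.42 in F (log2 5.21, SE 0.46, adjusted p = 7.91e-05). Autophagy proteins had 13 of 71 higher and 2 lower (median log2 0.52, bounded 0.46). Members called higher numbered 8, 7, 8 and 7 without DT-1, DT-2, F-1 and F-2. ATG8i (Unigene33449), which coats the autophagosome, had 255 and 226 in DT, against 57 and 36.8 in F (log2 2.35, SE 0.43, adjusted p = 0.00266). Proteases were more often called lower than higher, though their summed level was not lower in DT. Vacuolar and senescence proteases were lower in 75 of 243 (30.9%) and higher in 25 (10.3%, near the 10.1% over all unigenes, median log2 −1.28, bounded −1.12). The summed level of the list was 4667 and 4495 scaled FPKM in DT, against 4180 and 3340 in F. A subtilisin-like protease (CL2636.Contig6) had 0.416 and 0.179 in DT, against 19.1 and 28.6 in F (log2 −6.31, SE 0.54, adjusted p = 7.50e-05). The drought protease RD19a (CL5314.Contig1) had 213 and 202 in DT, against 35.5 and 26.9 in F (log2 2.73, SE 0.41, adjusted p = 0.000777). In mitochondria, respiratory chain members had 39 of 268 higher (14.6%) and 13 lower (4.85%, median log2 0.24, bounded 0.23). There were 17, 24, 25 and 12 members higher without DT-1, DT-2, F-1 and F-2. The Rieske subunit of the cytochrome b-c1 complex (CL16038.Contig1) had 78.9 and 72.4 in DT, against 10.9 and 9.59 in F (log2 2.88, SE 0.39, adjusted p = 0.000428). Peroxisomes, which break down fatty acids, had members in both directions. Peroxisomal beta-oxidation and glyoxylate cycle enzymes had 22 of 85 higher (25.9%) and 12 lower (14.1%, near the 12.4% over all unigenes, median log2 −0.48, bounded −0.12). Calls higher numbered 10, 12, 11 and 7 and calls lower 4, 4, 7 and 7 without DT-1, DT-2, F-1 and F-2. A 3-ketoacyl-CoA thiolase 2 of beta-oxidation (CL14634.Contig1) had 102 and 91 in DT, against 13.6 and 11.2 in F (log2 2.96, SE 0.41, adjusted p = 0.000553). Isocitrate lyase of the glyoxylate cycle (Unigene5687) had 0.367 and 0.199 in DT, against 6.46 and 11 in F (log2 −4.92, SE 0.58, adjusted p = 0.000239). Proline and amino acid breakdown had 13 of 65 lower and 5 higher (median log2 −0.47, bounded −0.35), and DNA repair proteins 31 of 214 lower (14.5%, near the 12.4% over all unigenes) and 7 higher (3.27%, median log2 −0.74, bounded −0.68). Without DT-1, DT-2, F-1 and F-2 their lower counts were 8, 9, 8 and 8, and 11, 12, 24 and 10.

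**Figure D3:**
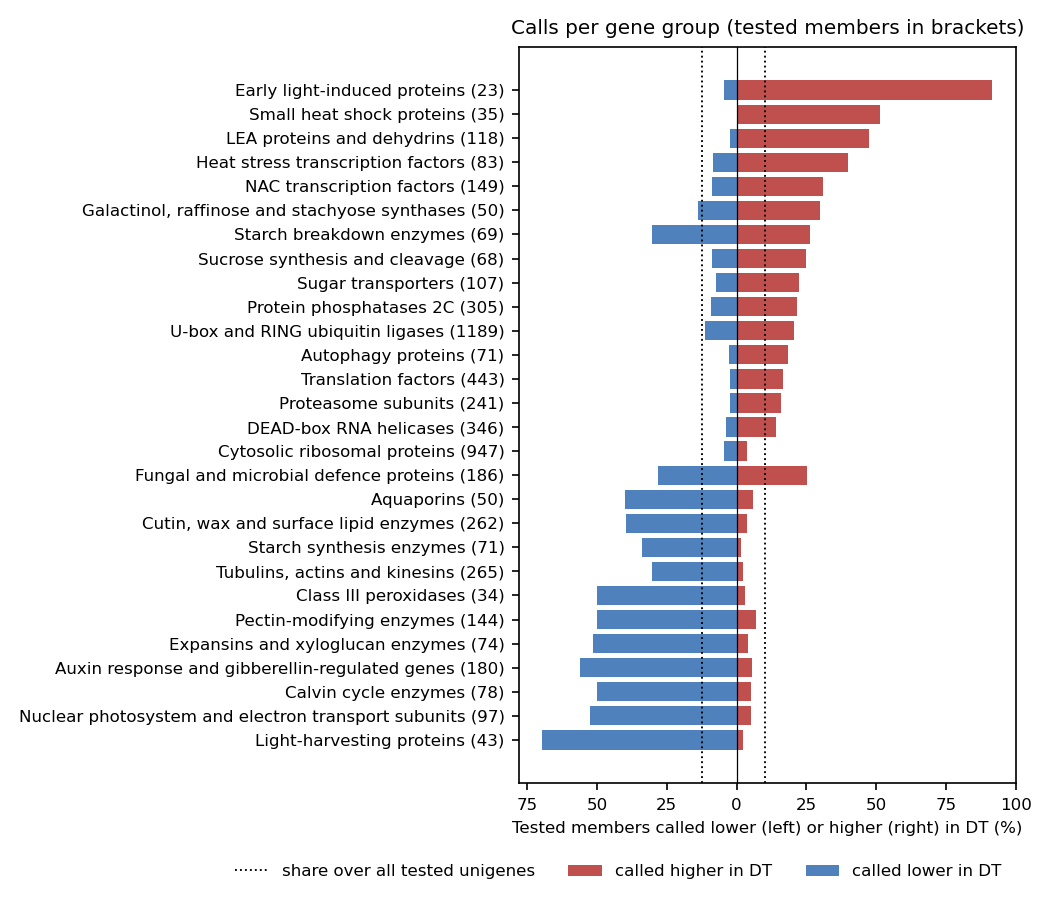
Bars give, for groups of genes, the percentage of tested members called lower in DT (left of 0) and higher in DT (right of 0), with the number tested in brackets and dotted lines at the shares over all tested unigenes, 12.4% lower and 10.1% higher. Early light-induced proteins reach 91.3% higher and light-harvesting proteins 69.8% lower, while cytosolic ribosomal proteins lie inside both lines.

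Defence proteins set the dry libraries apart from each other. Of 186 tested members 47 were called higher and 52 lower (median log2 −1.18, bounded −0.69). Removing DT-1, DT-2, F-1 and F-2 in turn gave 31, 38, 24 and 27 members higher and 33, 34, 44 and 36 lower. The list held 3.33% and 0.648% of the scaled FPKM of the DT libraries, against 0.769% and 0.658% of the F libraries. Chitinase 5, which cuts fungal walls (Unigene23424), had 12820 and 611 scaled FPKM in DT-1 and DT-2, against 126 and 51.1 in F-1 and F-2 (log2 6.24, SE 1.49, adjusted p = 0.0106). A thaumatin-like protein (Unigene14429) had 8467 and 392 in DT, against 68.5 and 41.8 in F (log2 6.33, SE 1.71, adjusted p = 0.0197). A pollen allergen homolog of the Bet v 1 family (Unigene24053) had 7328 and 431 in DT, against 326 and 129.9 in F (log2 4.09, SE 1.08, adjusted p = 0.0178). In all 3 DT-1 stood far above DT-2, and DT-2 lay above F by a smaller step. The calls were lost without DT-1, F-1 or F-2, with adjusted p = 0.137 without DT-1, 0.0574 without F-1 and 0.102 without F-2 for the chitinase, adjusted p = 0.22 without DT-1, 0.107 without F-1 and 0.145 without F-2 for the thaumatin-like protein and adjusted p = 0.45 without DT-1, 0.0608 without F-1 and 0.138 without F-2 for the allergen homolog. An acidic glucan endo-1,3-beta-glucosidase, another fungal wall enzyme (CL11625.Contig1), had 2766 and 172 in DT, against 18.2 and 12.1 in F (log2 6.60, SE 1.26, adjusted p = 0.00318). An EG45-like protein (CL15632.Contig2) had 4009 and 139 in DT, against 2.7 and 2.8 in F (log2 9.55, SE 2.04, adjusted p = 0.00597, or 0.0636 without F-1 and 0.0735 without F-2). Major allergen Pru av 1 (CL13304.Contig1) had 524 and 3.25 in DT, against 35.9 and 5.86 in F, with DT-1 high and DT-2 at the level of F (adjusted p = 0.0881).

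Another set ran the other way, with DT-2 at the level of the watered leaf and DT-1 far below. Miraculin (Unigene47000) had 1836 and 12980 in DT, against 19060 and 10160 in F. A further miraculin (CL6363.Contig3) had 751 and 9413 in DT, against 8143 and 3745 in F. The Kunitz-type seed protein (Unigene46998) had 243 and 8117 in DT, against 7028 and 3919 in F. A polygalacturonase inhibitor, which blocks pectin-cutting enzymes of fungi (CL3993.Contig3), had 3.86 and 349 in DT, against 376 and 350.1 in F. None of these 4 was called (adjusted p from 0.44 to 0.895). Contigs of a single chitinase cluster differed in the same way. CL8492.Contig2 had 427 and 35.3 in DT, against 1.4 and 1.93 in F, and CL8492.Contig1 had 33.2 and 393 in DT, against 2.15 and 0.989 in F, so that DT-1 and DT-2 changed places. Both were called higher (adjusted p = 0.00912 and adjusted p = 0.0161), and neither call held without its high DT library or an F library, with adjusted p = 0.0919 without DT-1, 0.0885 without F-1 and 0.0862 without F-2 for the contig high in DT-1 and adjusted p = 0.123 without DT-2, 0.0984 without F-1 and 0.136 without F-2 for the contig high in DT-2. Of 1277 unigenes with at least 100 scaled FPKM in a DT library, 28 were at least 8-fold higher in DT-1 and 18 at least 8-fold higher in DT-2, on log2(scaled FPKM + 1). In F the same measure gave 15 higher in F-1 and 0 higher in F-2 among 893 unigenes. The glucosidase, the EG45-like protein, allergen Pru av 1, the further miraculin, the polygalacturonase inhibitor and the CL8492 contigs were picked once their values were known.

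**Figure D4:**
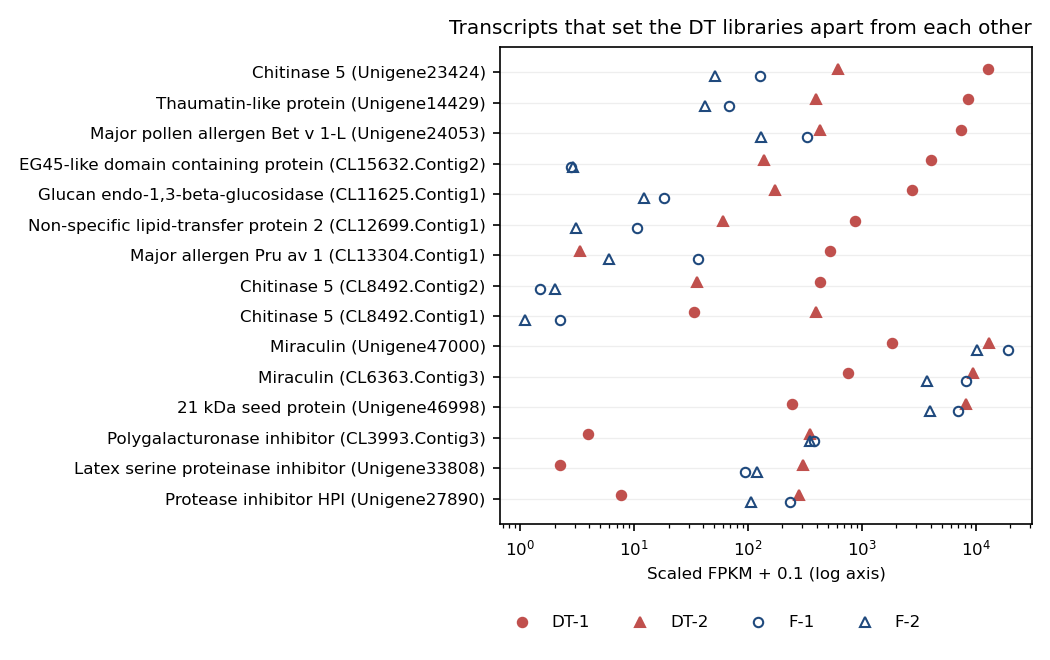
Points give the scaled FPKM (x axis, log scale, 0.1 added) of transcripts that differed between the dry libraries, in DT-1 and DT-2 (filled) and F-1 and F-2 (open). Chitinase 5 (Unigene23424) has 12820 in DT-1 and 611 in DT-2, and the Kunitz-type seed protein (Unigene46998) has 243 in DT-1 and 8117 in DT-2, near its F values of 7028 and 3919.

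Severe dehydration at a labelled relative water content of 20% (D20, libraries D20-1 and D20-2) preceded the dry state. D20 libraries differ from DT and F libraries in raw read length, which cannot be told apart from the stage. Between DT and D20 188 unigenes were called higher in DT (0.22% of those tested) and 92 lower (0.108%), with 11088 at an unadjusted p below 0.05. The calls numbered 8 higher and 0 lower without DT-1, 84 and 1 without DT-2, 0 and 0 without D20-1, and 3 and 1 without D20-2. They also moved with libraries that share the estimate of spread, to 115 and 60 without F-1, 113 and 52 without F-2, 26 and 11 without R-1, 27 and 11 without R-2, 2126 and 2461 without D75-1 and 2133 and 2483 without D75-2. Small heat shock proteins were among the higher calls, with 6 of 35 members. The class II member (Unigene14339) had 539 and 164 in DT, against 14.9 and 12.3 in D20 (log2 4.69, SE 0.67, adjusted p = 0.0206). A class I member (CL8099.Contig1) had 280.4 and 108 in DT, against 12.6 and 17.8 in D20 (log2 3.68, SE 0.53, adjusted p = 0.0206). For both, the D20 values lay near those of F, and only the DT values of these 3 stages were high. This did not hold for the whole list. The class I member CL882.Contig3 had 114.1 and 102.5 in D20, against 4.06 and 2.97 in F. The summed level of the list was 511 and 480 in D20, against 206.4 and 136.1 in F and 4711 and 1547 in DT. An early light-induced protein (Unigene19910) had 789 and 667 in DT, against 57.7 and 66.4 in D20 (log2 3.55, SE 0.61, adjusted p = 0.038). Calvin cycle enzymes had 10 of 78 higher in DT and 0 lower. Fructose-1,6-bisphosphatase of the chloroplast (Unigene42757) had 30.7 and 32.2 in DT, against 1.31 and 1.35 in D20 (log2 4.56, SE 0.45, adjusted p = 0.00369). Phosphoribulokinase (CL11508.Contig3) had 32.6 and 27.1 in DT, against 2.13 and 2.49 in D20 (log2 3.67, SE 0.42, adjusted p = 0.00638). The RuBisCO small chain (CL7824.Contig2) had 565 and 325 in DT, against 32.8 and 46.2 in D20 (log2 3.49, SE 0.63, adjusted p = 0.0434). All 3 were also lower in DT than in F, where the bisphosphatase had 306 and 250 (adjusted p = 0.000363) and the kinase 265 and 230.2 (adjusted p = 0.000269), so that the dry leaf lay between D20 and the watered leaf. The glycine cleavage H protein, of photorespiration (CL7178.Contig2), had 46.3 and 27.8 in DT, against 2.14 and 1.71 in D20 (log2 4.25, SE 0.49, adjusted p = 0.00638). Leaf ferredoxin-NADP reductase (CL8867.Contig1) had 81.4 and 81.1 in DT, against 6.83 and 6.88 in D20 (log2 3.56, SE 0.44, adjusted p = 0.00997).

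Other lists tied to dehydration had members called lower in DT than in D20 and none called higher. The lower calls were 2 of 118 LEA proteins and dehydrins, 2 of 50 galactinol, raffinose and stachyose synthases, 3 of 149 NAC factors, 2 of 280 DREB and ERF factors and 1 of 305 phosphatases 2C. Over all tested unigenes 0.108% were called lower. The summed level of each of these lists was lower in both DT libraries than in both D20 libraries. For LEA proteins and dehydrins it was 63880 and 103600 in DT, against 185400 and 156200 in D20. Small heat shock proteins and early light-induced proteins, given above, had higher calls and none lower. Galactinol synthase 2 (Unigene43438) had 23 and 26.8 in DT, against 233 and 180.1 in D20 (log2 −3.05, SE 0.50, adjusted p = 0.0315). A LEA 76 protein (CL18311.Contig4) had 30 and 69.8 in DT, against 499 and 390.5 in D20 (log2 −3.15, SE 0.50, adjusted p = 0.0282). NAC2 (CL4353.Contig2) had 20.9 and 30.5 in DT, against 180.2 and 153 in D20 (log2 −2.70, SE 0.42, adjusted p = 0.0265). Ethylene-responsive factor 3 (Unigene23713) had 82.1 and 87.3 in DT, against 379 and 410 in D20 (log2 −2.22, SE 0.39, adjusted p = 0.0418). DEHYDRATION-INDUCED 19 homolog 4 (CL12240.Contig6) had 2.69 and 5.84 in DT, against 57.2 and 41.4 in D20 (log2 −3.52, SE 0.52, adjusted p = 0.0234). Every DT value lay below every D20 value. The ABA phosphatase named protein phosphatase 2C 37 (CL3107.Contig15) had 2.79 and 2.85 in DT, against 27.4 and 27 in D20 (log2 −3.27, SE 0.42, adjusted p = 0.0128), and its F values of 3.64 and 3.94 were close to those of DT. Other values that set the D20 libraries apart stand beside these. A unigene whose best nucleotide hit is 16S rRNA (CL18166.Contig5) had 23290 and 6537 in DT, against 0 and 2.11 in D20. Its F-1 and F-2 values were 23430 and 2446 scaled FPKM. The chloroplast-encoded CP43 protein of photosystem II (Unigene335) had 0.152 and 0.096 in DT, against 269.8 and 85.9 in D20, and 0.0235 and 0.0324 in F. Their part in the comparison with D20 was not tested. Unigenes given for the comparison with D20, except the RuBisCO small chain, phosphoribulokinase and CL882.Contig3, were picked once their values were known.

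**Figure D5:**
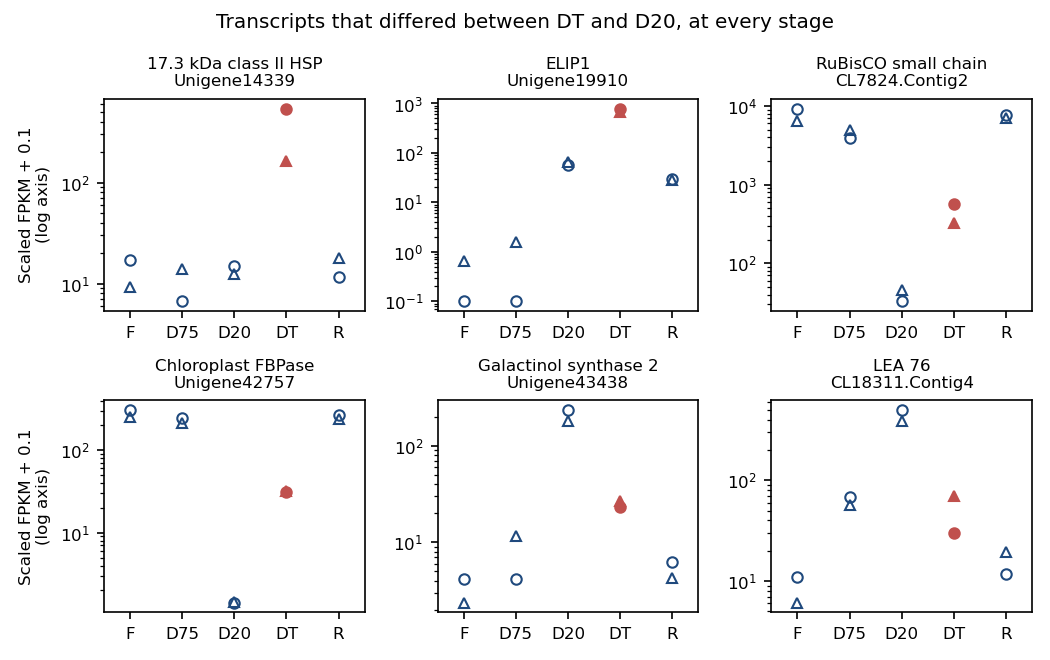
Points give the scaled FPKM (y axis, log scale, 0.1 added) of transcripts called between DT and D20, in both libraries of the watered (F), slightly dehydrated (D75), severely dehydrated (D20), dry (DT, filled) and rehydrated (R) stages, with circles for replicate 1 and triangles for replicate 2. The class II heat shock protein (Unigene14339) stands at 539 and 164 in DT and at 14.9 and 12.3 in D20, and the RuBisCO small chain (CL7824.Contig2) at 565 and 325 in DT and at 32.8 and 46.2 in D20.

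Called unigenes were longer and more often annotated than the others. The median length was 1333 nt for unigenes called higher and 1312 nt for those called lower, against 733 nt for those not called, and a longer or more abundant unigene gathers more fragments to test. Without any database hit were 13.8% of the unigenes called higher (1184) and 12.8% of those called lower (1363), against 28.0% of all tested. Contigs of an assembly cluster were more often called in 1 direction than in both. In 1272 clusters at least 2 contigs were called higher and none lower, in 1426 at least 2 were called lower and none higher, and in 283 contigs were called in both directions. In the asparagine synthetase cluster contigs differed in level, with CL12312.Contig2 at 2.98 and 4.37 in DT, against 117 and 77.6 in F (log2 −4.72, SE 0.54, adjusted p = 0.000215), and CL12312.Contig3 at 352 and 1149 in DT, against 223 and 89.2 in F, which was not called (adjusted p = 0.0654).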

How the data were processed

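Total RNA of leaves was sequenced as paired reads in 10 libraries, 2 per stage, of which 4 (DT and F) carry the main comparison. According to the study's methods SeqPrep and Sickle served to trim the reads, and the authors built unigenes with Trinity and estimated abundances with RSEM (versions and aligner not given in the sources used here). The deposited count values are whole fragments per unigene, not normalized. The deposited FPKM values were made by the authors from these counts, the unigene length and the library total. Because no genome was used, unigenes are not genes: alleles, paralogs and fragments of a transcript can share or split reads, and names rest on the authors' Swiss-Prot hits or, where there was none, on hits in Nr.

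The counts were tested with edgeR 4.0.16 (R 4.3.3; TMM scaling, quasi-likelihood test, 10 libraries in a single fit, Benjamini-Hochberg adjustment), as DT over F and DT over D20. Tests were checked on simulated counts. Where both libraries of a group had 0 fragments, folds were bounded with a floor of 3 fragments over that group, which covers counting error only. Named unigenes were the 20 most abundant in DT, the 2 most abundant and the lowest-p members of each gene list, and those with qPCR primers. Added to these were the 15 largest folds in each direction among DEGs of at least 10 scaled FPKM in the higher group. For these folds both DT libraries had to lie on the same side of both F libraries, so that separation was fixed by the selection. Exceptions are given in the text. Of the unigenes so selected, the text gives those that carry a comparison. Members and lists were chosen with earlier results of these data known. Alternatives were other scalings, filters, tests (DESeq2 1.42.0, limma 3.58.1, the edgeR exact test, the last chosen after seeing the data), sample sets, thinning to the shallowest library and sums per assembly cluster. Summaries and figures were made in Python 3.11.15 with matplotlib 3.10.9, pandas 2.3.3, scipy 1.17.1 and numpy 2.4.6.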

Additional observations from a re-analysis of the deposited data

How the results depend on the processing

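With 2 libraries per stage the counts of DEGs and calls depend strongly on which libraries share the estimate of spread. Many named unigenes were selected from these same libraries by fold, by lowest p or once their values were known. The alternatives refit the same fragments, so the stability of the named unigenes is no independent evidence of their direction. Of the 157 unigenes named in the text 131 were called between DT and F, none of these 131 changed direction in the 21 alternatives run per unigene, and 110 kept an adjusted p below 0.05 in each. Against 893 DEGs higher and 1461 lower, there were 2878 and 5248 with no filter on low values, 2856 and 4034 with DESeq2 (which gave no adjusted p for 13225 unigenes), 3560 and 5095 with the edgeR exact test, 5403 and 8164 in a fit of the DT and F libraries only, 3679 and 5913 with the R libraries added, 1369 higher with counts thinned, and 514 higher with limma on log2(FPKM + 0.1). Leaving out 1 of the 10 libraries gave 0 to 4433 DEGs higher and 0 to 5845 lower, 3313 to 13228 calls higher and 4899 to 16536 calls lower, the highest of each without a D75 library. Leaving out DT-1, DT-2, F-1 and F-2 moved 77, 77, 55 and 80 of the higher and lower counts of the 60 gene lists by over 1.5 times, small counts included. Calls higher numbered 5374 with counts thinned and 5463 per assembly cluster. Calls lower numbered 16941 and 17334 with limma (0.1 as the pseudocount in the second), 16311 with DT and F only, 16211 with R added and 6317 per cluster. RLE scaling moved the median log2 fold change of all unigenes to −0.32 and the share of calls that were higher to 40.9%, and changed the sign of the median of 1 of 60 gene lists, vascular markers, which the report does not describe.

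Against 188 calls higher and 92 lower between DT and D20, there were 902 and 953 with no filter, 1054 and 923 with DESeq2, 846 and 832 with the exact test, 409 and 173 thinned, 418 higher with limma on log2(FPKM + 0.1), and 0 to 2133 higher and 0 to 2483 lower with 1 library left out. Tested unigenes without a fragment averaged 21770.5 in DT and 12113.0 in F once thinned.

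Replicate numbers did not pair the libraries, since deviations of DT and F with the same number correlated at 0.099 over 14701 unigenes and those of the 10 pairs of stages at −0.136 to 0.12. With the replicate number as a block there were 824 DEGs higher and 1488 lower, 7613 calls higher and 9711 lower, and 132 and 73 between DT and D20, and 2 named unigenes lost their call. As a check for repeated deposits of a library, the chi-square per degree of freedom between the libraries of a stage was 10.7 to 53.3.

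Directions that turned belong to transcripts not called between DT and F. With limma, at both pseudocounts, Dc3 (CL17957.Contig2) had a log2 fold change of −0.15 and PIP1-2 (CL4872.Contig1) of −0.13. With 1 library left out, log2 fold changes ran between −2.68 and 5.40 for allergen Pru av 1 (CL13304.Contig1), −0.37 and 0.95 for Dc3, −0.99 and 2.52 for the unigene with the 16S rRNA hit (CL18166.Contig5), −0.78 and 0.23 for galactinol synthase 1 (CL2862.Contig3), −2.98 and 0.66 for the further miraculin (CL6363.Contig3), −0.08 and 2.14 for the glycine-rich wall protein (Unigene13939), −0.33 and 2.06 for Dh2 (Unigene15371), −0.83 and 1.06 for PCC6-19 (Unigene36452) and −4.49 and 0.57 for the Kunitz-type seed protein (Unigene46998). The cause of these changes was not tested.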
